A study of Mus musculus with 10 samples.

Results

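The matrix metalloproteinases (MMPs), the ADAMTS proteases (a disintegrin and metalloproteinase with thrombospondin motifs) and their inhibitors, the TIMPs (tissue inhibitors of metalloproteinases), were examined in psoriasis-like mouse skin. The genes were taken by symbol alone: every symbol that starts with Mmp, Adamts or Timp followed by a digit, which gave 46 of the 24358 genes counted, made up of 23 MMP, 19 ADAMTS and 4 TIMP genes. The samples were full-thickness biopsies of dorsal skin from 5 C57Bl/6 mice, all of which carried an IL-17C transgene and developed lesions resembling psoriasis. From every mouse came 1 lesional and 1 uninvolved biopsy. Mice 2237, 2275 and 2296 were labelled IL-17C+, and mice 2392 and 2465 were labelled IL-17C+KO, the KO being a loss of Il6 by the title of the series. Ages were 10 or 14 weeks and were not tied to single mice. The labels do not name the promoter of the transgene, and skin of mice without the transgene was not analysed here, so uninvolved skin of the same mice is the reference throughout.

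MMPs are zinc-dependent proteases, secreted or held at the cell surface, that are made as inactive precursors and that cleave collagens, gelatins, proteoglycans and other matrix proteins. ADAMTS proteases act more narrowly: some trim procollagen, some cleave large proteoglycans of the matrix such as versican and aggrecan, and 1 cleaves von Willebrand factor. TIMPs bind the active site of MMPs and block it, and TIMP3 also blocks several ADAM and ADAMTS enzymes. In skin these families take part in wound repair, hair cycling and the passage of leukocytes through the dermis and basement membrane.

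The libraries held 21056850 to 31072491 counts, in which 17790 to 18431 genes had at least 1 count, and 3 counts corresponded to 0.0965 to 0.142 CPM of total counts (CPM being counts scaled to library size). The 46 genes took 0.0783 to 0.144% of all counts in uninvolved skin and 0.149 to 0.462% in lesional skin, with the highest share in the lesion of mouse 2465. The knocked-out gene went against its label: Il6 had 9, 4 and 6 counts in uninvolved and 26, 18 and 69 counts in lesional skin of mice 2237, 2275 and 2296, whereas mice 2392 and 2465 had 71 and 55 counts in uninvolved skin and stood at 12.3 and 14.0 CPM of total counts, more than in any other library, in lesional skin. Whether those reads come from a transcript of the disrupted gene or the labels are exchanged was not tested. Each direction between the labels below compares mice as labelled and would turn around if they were exchanged. Summed levels of some cell type markers moved with skin type, and others did not. The summed level of 8 skeletal muscle markers was 5964 to 36859 CPM in uninvolved and 531 to 5282 CPM in lesional libraries, lower in the lesion of 5 of 5 mice. Summed keratinocyte markers spanned 13556 to 31937 CPM in uninvolved and 17564 to 24359 CPM in lesional libraries. In bulk tissue, a change in the number of cells of a type and a change of RNA per cell cannot be told apart.

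Lesional skin was first compared with uninvolved skin within the 5 mice. Across these biopsies the proteases and Timp1 were mostly higher in lesions, with large differences for the tested collagenases, Mmp10, Timp1 and Adamts4. Timp3, Timp4, Mmp15, Mmp17, Mmp27, Mmp28 and Adamts20 were lower in most mice. After Benjamini-Hochberg adjustment over 16083 genes in edgeR's quasi-likelihood test with the mouse as a block, 0 of the 41 members tested passed 0.05, against 8 of all genes (0.0497%), and the smallest adjusted p of a member was 0.0660. At an unadjusted p under 0.05, 25 of 41 members were higher in lesions and 0 were lower, beside 10.1% of all genes higher and 11.5% lower. The median log2 difference was 1.29 over the members and -0.01 over all genes tested. In DESeq2, 21 of the 41 were called, all higher, beside 12.7% of all genes called, and in limma-voom 0 members were called. Without the mouse block edgeR called 14 members, beside 5.54% of all genes, and with the effects of both labels averaged it called 1 member, Timp1, beside 0.131%.

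The direction was shared between mice more often than the size. Of the 41 members, 18 were higher in the lesion of 5 of 5 mice, where 9.02% of all genes were, and 0 were lower in 5 of 5 mice, where 9.98% of all genes were. For 11 members every lesional library lay above every uninvolved library in CPM (2.98% of all genes), and for 0 every one lay below (4.27%). The 11 were Timp1, Mmp2, Mmp3, Mmp10, Mmp13, Mmp14, Mmp19, Adamts2, Adamts4, Adamts8 and Adamts15. By mouse, 29 to 35 of the 41 members were higher in the lesion, and their median log2 difference was 0.78 in mouse 2237, 1.34 in mouse 2275, 0.47 in mouse 2296, 0.75 in mouse 2392 and 1.90 in mouse 2465. Mouse 2465 gave the largest difference for 20 of the 41 members. Without mouse 2237 the edgeR test called 7 members (Timp1, Mmp1b, Mmp8, Mmp9, Mmp10, Mmp13 and Adamts7) among 1249 genes (7.84%), and without any other mouse it called 0 members and 0 genes.

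**Figure D1:**
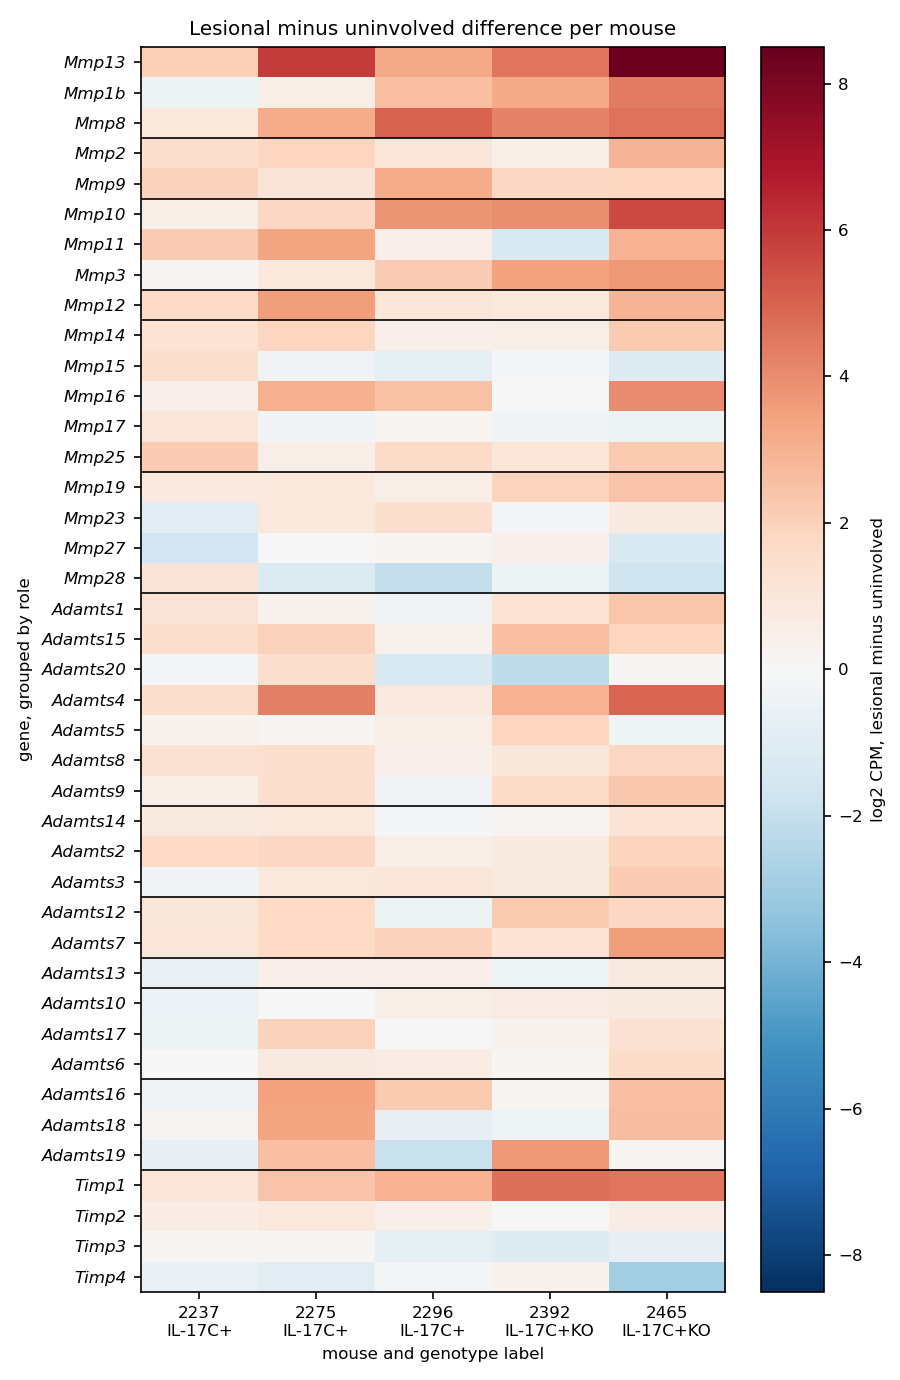
Difference between lesional and uninvolved skin of the same mouse (log2 CPM with a prior count of 2) for each tested MMP, ADAMTS and TIMP gene, in rows, and each of the 5 mice, in columns. Red marks higher in the lesion and blue lower. The rows of Timp1, Mmp8, Mmp9, Mmp10 and Mmp13 are red in every mouse, whereas Timp4, Mmp15 and Mmp28 are blue in 4 of 5.

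The collagenases, which make the first cut in fibrillar collagen, had the largest differences. Mmp13, the interstitial collagenase of rodents with the broadest expression, was at 4.21, 0.0796 and 5.18 CPM in uninvolved and 17.7, 9.87 and 49.7 CPM in lesional skin of mice 2237, 2275 and 2296. In mice 2392 and 2465 it was at 1.25 and 0.153 CPM in uninvolved and 31.5 and 75.7 CPM in lesional skin. All lesional libraries were above all uninvolved ones, and the 3 lowest uninvolved values were in mice 2275, 2392 and 2465. The fitted log2 difference was 4.62 ± 0.97 (SE, 5 mice; edgeR adjusted p 0.0862), and the pooled counts differed 18.4-fold (95% interval 16.1 to 21.0, counting error only).

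Mmp8, the collagenase stored in neutrophil granules, was at 0.619, 0.597 and 1.04 CPM in uninvolved and 1.26, 6.06 and 36.4 CPM in lesional skin of mice 2237, 2275 and 2296. In mice 2392 and 2465 it was at 1.92 and 1.61 CPM in uninvolved and 36.5 and 40.6 CPM in lesional skin. Every mouse was higher in its lesion, but the lesion of mouse 2237 lay below the uninvolved skin of mice 2392 and 2465. The log2 difference was 3.83 ± 0.61 (SE, 5 mice; edgeR adjusted p 0.0660). The summed level of 11 neutrophil markers was 15.8 to 53.1 CPM in uninvolved and 34.4 to 247 CPM in lesional libraries, and its log2 difference was 0.47, 1.69, 2.22, 2.18 and 3.76 in mice 2237, 2275, 2296, 2392 and 2465, beside 0.92, 3.18, 5.01, 4.19 and 4.59 for Mmp8. Each of these markers had counts in every library, and the part of neutrophil number in the Mmp8 difference was not tested.

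Mmp1a and Mmp1b, the mouse genes closest to human interstitial collagenase, were nearly silent in uninvolved skin. Mmp1b had 0, 0, 2, 0 and 0 counts in uninvolved and 0, 1, 27, 20 and 35 counts in lesional skin of mice 2237, 2275, 2296, 2392 and 2465. Pooled, 83 lesional counts stood against 2, a ratio of 39.6 with an exact 95% interval of 10.6 to 332. Mmp1a had 16 counts in all lesional and 1 in all uninvolved libraries and was left out of the test by the count filter. They are close relatives in the same gene cluster, so the counting may split reads between them and both values are uncertain. Mmp1b also shares 157 exon bases with Mmp12 on the other strand, and it had 0 counts in the lesion of mouse 2237, the library with the most Mmp12. Whether reads of either gene were counted for the other was not tested.

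The gelatinases cleave denatured collagen and basement membrane collagen. Mmp9, made by neutrophils, macrophages and keratinocytes, was at 6.15, 11.5 and 8.68 CPM in uninvolved and 23.9, 24.8 and 76.5 CPM in lesional skin of mice 2237, 2275 and 2296. In mice 2392 and 2465 it was at 15.2 and 31.3 CPM in uninvolved and 52.3 and 113 CPM in lesional skin. The mouse with the highest uninvolved level, 2465, also had the highest lesional level, and the within-mouse log2 difference stayed between 1.11 and 3.13. The fitted difference was 1.96 ± 0.29 (SE, 5 mice; edgeR adjusted p 0.0660).

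Mmp2, the gelatinase of fibroblasts, was at 77.8, 105 and 165 CPM in uninvolved and 203, 364 and 337 CPM in lesional skin of mice 2237, 2275 and 2296. It was at 185 and 156 CPM in uninvolved and 259.7 and 1179 CPM in lesional skin of mice 2392 and 2465. The groups did not overlap, and the lesion of mouse 2465 stood far above the other lesions. The difference was 1.51 ± 0.35 (log2, SE, 5 mice; edgeR adjusted p 0.1002). The summed level of 8 fibroblast markers was higher in the lesion of 5 of 5 mice, at 2486 to 4070 CPM in uninvolved and 5683 to 29426 CPM in lesional libraries, with the highest value also in mouse 2465. The part of fibroblast content in the Mmp2 difference was not tested.

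The stromelysins cleave a broad range of matrix proteins and activate other pro-MMPs. Mmp3, chosen here because it heads a comparison between the labels given below, was at 24.1, 15.7 and 20.6 CPM in uninvolved and 27.9, 29.0 and 90.7 CPM in lesional skin of mice 2237, 2275 and 2296. It was at 19.7 and 21.4 CPM in uninvolved and 216 and 271 CPM in lesional skin of mice 2392 and 2465. Uninvolved levels lay within a narrow band, whereas lesional levels spread from just above that band to far above it. The difference was 2.08 ± 0.58 (log2, SE, 5 mice; edgeR adjusted p 0.123).

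Mmp10 was at 1.03, 0.358 and 0.838 CPM in uninvolved and 1.505, 1.40 and 12.5 CPM in lesional skin of mice 2237, 2275 and 2296. It was at 0.492 and 0.652 CPM in uninvolved and 9.01 and 34.8 CPM in lesional skin of mice 2392 and 2465. Mice 2237 and 2275 had low lesional values and the other mice high ones, as for Mmp3. The difference was 3.34 ± 0.79 (log2, SE, 5 mice; edgeR adjusted p 0.104). Mmp11, the third of the group, overlapped between skin types and was lower in the lesion of mouse 2392, at a log2 difference of -1.28.

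Mmp12, the elastase of macrophages, was at 24.9, 1.95 and 4.19 CPM in uninvolved and 80.4, 23.7 and 8.51 CPM in lesional skin of mice 2237, 2275 and 2296. It was at 4.38 and 1.73 CPM in uninvolved and 8.11 and 13.0 CPM in lesional skin of mice 2392 and 2465. Every lesion was above its own uninvolved skin, but the skin types overlapped because mouse 2237 was high in both. The difference was 1.99 ± 0.45 (log2, SE, 5 mice; edgeR adjusted p 0.0944). The log2 difference in the summed level of 7 macrophage markers was -0.09, -0.30, 1.40, 1.47 and -0.21 in mice 2237, 2275, 2296, 2392 and 2465, beside 1.69, 3.55, 1.002, 0.87 and 2.86 for Mmp12. The sum is led by its most abundant genes: 7 of 7 macrophage markers had a positive fitted difference over 5 mice (median log2 0.30), and 2 of 7 were higher in the lesion of every mouse. The part of macrophage content in the Mmp12 difference was not tested. Mmp7, the matrilysin of glandular epithelia, had 0 counts in every library, which is under 3 counts or 0.0965 to 0.142 CPM of total counts in each.

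**Figure D2:**
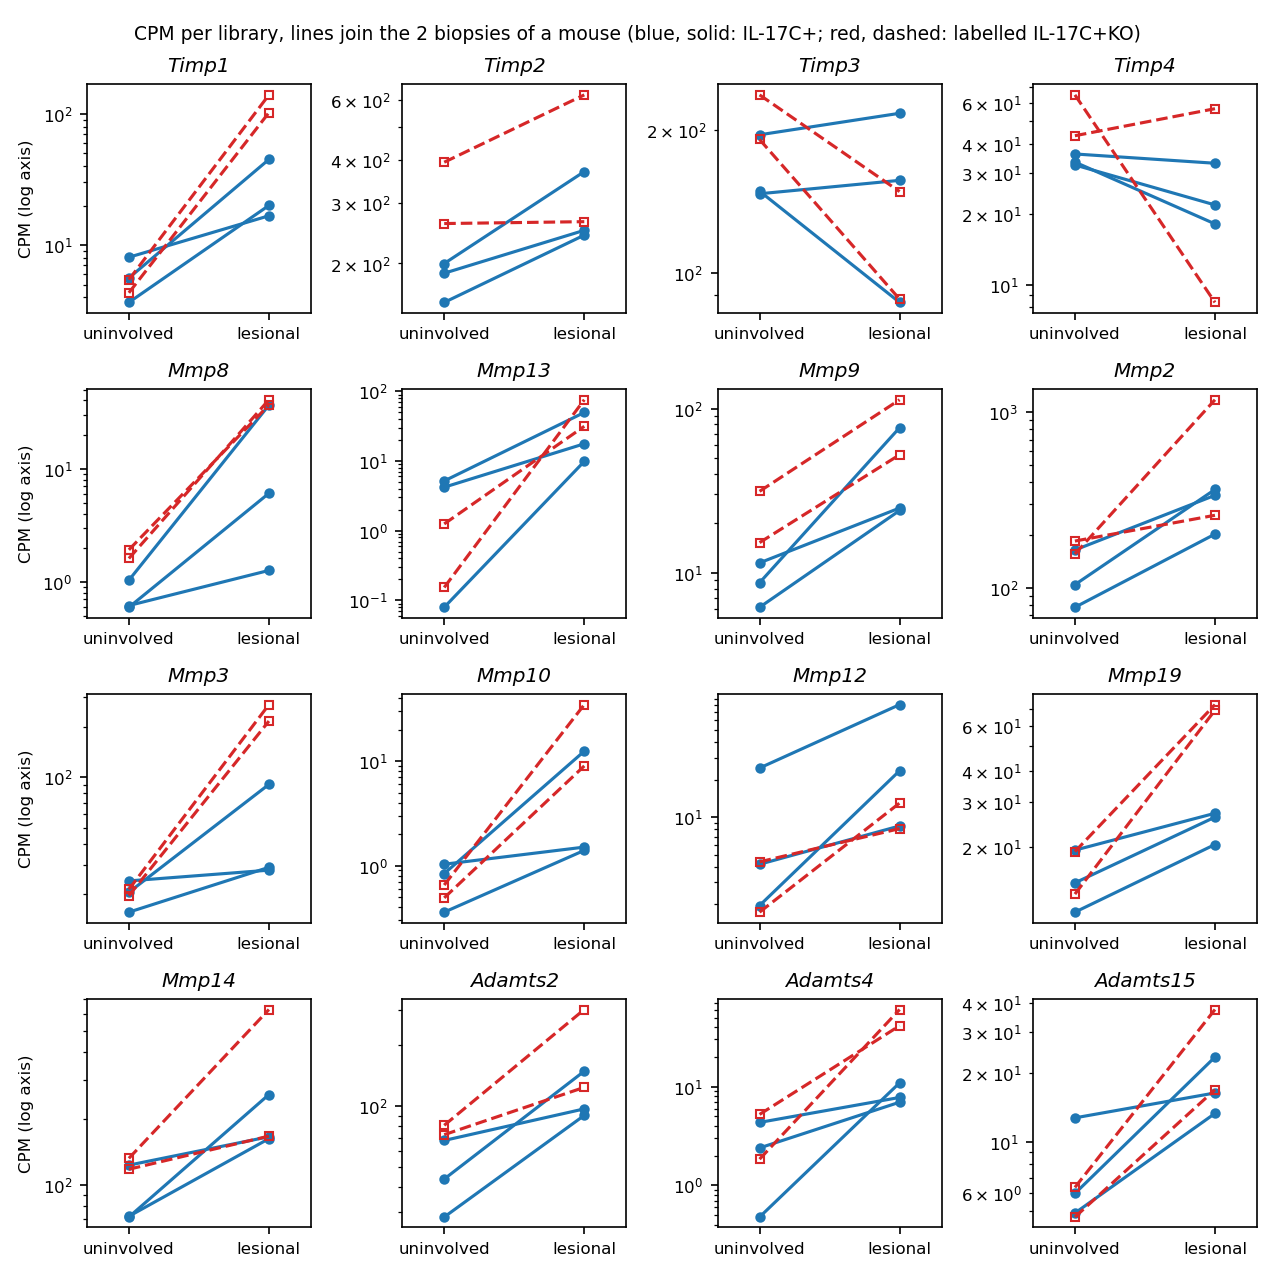
CPM of leading MMP, ADAMTS and TIMP genes in uninvolved and lesional skin on a log axis, with 1 line per mouse joining its pair of biopsies and colour marking the genotype label. The lines of Timp1 and Mmp3 reach higher lesional levels in mice 2392 and 2465 than in the 3 other mice, and those of Timp4 go down in 4 mice.

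Of the 5 membrane-type MMPs tested, which act at the cell surface, 3 were higher at an unadjusted p under 0.05, beside 10.1% of all genes. Mmp25, a membrane-type MMP of leukocytes, was at 0.206, 0.757 and 0.444 CPM in uninvolved and 1.23, 1.13 and 1.57 CPM in lesional skin of mice 2237, 2275 and 2296. It was at 1.16 and 0.921 CPM in uninvolved and 2.53 and 4.55 CPM in lesional skin of mice 2392 and 2465. It was higher in every lesion at low levels, with a log2 difference of 1.64 ± 0.37 (SE, 5 mice; edgeR adjusted p 0.0978). Mmp14, which activates pro-MMP2 at the cell surface and was chosen after its values were seen, differed by 1.24 ± 0.31 (log2, SE, 5 mice; edgeR adjusted p 0.111), with lesional levels of 162 to 628 CPM above uninvolved levels of 71.1 to 132 CPM. Mmp15 and Mmp17 had log2 differences of -0.19 ± 0.37 and 0.05 ± 0.28 (SE, 5 mice).

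Mmp19, expressed in basal keratinocytes and vessels, was at 14.4, 11.1 and 19.4 CPM in uninvolved and 26.2, 20.4 and 27.1 CPM in lesional skin of mice 2237, 2275 and 2296. It was at 19.2 and 13.0 CPM in uninvolved and 72.7 and 69.1 CPM in lesional skin of mice 2392 and 2465. The groups did not overlap, and the lesions of mice 2392 and 2465 stood above the other lesions. The difference was 1.31 ± 0.31 (log2, SE, 5 mice; edgeR adjusted p 0.105). Mmp28, an MMP of keratinocytes chosen after its values were seen, was lower in the lesion of 4 of 5 mice, with a log2 difference of -0.88 ± 0.47 (SE, 5 mice; edgeR adjusted p 0.325). Mmp20, the enamel MMP, Mmp21 and Mmp24 did not pass the count filter, with 0 to 6, 0 to 1 and 1 to 13 counts per library.

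Among the ADAMTS genes, the 3 procollagen N-propeptidases, which trim fibrillar procollagens, were all higher at an unadjusted p under 0.05, beside 10.1% of all genes. Adamts2, the main such enzyme of skin, was at 28.4, 43.7 and 67.8 CPM in uninvolved and 90.3, 149 and 97.2 CPM in lesional skin of mice 2237, 2275 and 2296. It was at 72.4 and 80.6 CPM in uninvolved and 124 and 301 CPM in lesional skin of mice 2392 and 2465. The groups did not overlap, with mouse 2465 the highest in lesions. The difference was 1.33 ± 0.25 (log2, SE, 5 mice; edgeR adjusted p 0.0763), and those of Adamts3 and Adamts14 were 1.005 ± 0.42 and 0.60 ± 0.25.

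Of the 7 tested ADAMTS genes whose products cleave proteoglycans, 5 had an unadjusted p under 0.05, all higher, beside 10.1% of all genes. Adamts4, an aggrecanase that also cleaves versican, was at 2.39, 0.478 and 4.34 CPM in uninvolved and 6.95, 10.9 and 7.77 CPM in lesional skin of mice 2237, 2275 and 2296. It was at 5.23 and 1.84 CPM in uninvolved and 41.4 and 60.4 CPM in lesional skin of mice 2392 and 2465. The groups did not overlap, and the lesions of mice 2392 and 2465 were well above the 3 others. The difference was 2.93 ± 0.69 (log2, SE, 5 mice; edgeR adjusted p 0.104).

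Adamts15, a versican-cleaving member of the same group, was at 4.91, 5.97 and 12.7 CPM in uninvolved and 13.3, 23.4 and 16.3 CPM in lesional skin of mice 2237, 2275 and 2296. It was at 6.35 and 4.72 CPM in uninvolved and 37.6 and 16.8 CPM in lesional skin of mice 2392 and 2465. The lowest lesion was just above the highest uninvolved library. The difference was 1.64 ± 0.32 (log2, SE, 5 mice; edgeR adjusted p 0.0803). Adamts5 and Adamts20 were the tested members of this group with an unadjusted p of 0.05 or more, at log2 differences of 0.47 ± 0.31 and -0.39 ± 0.53.

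Adamts7, which cleaves cartilage oligomeric matrix protein, was at 1.57, 1.99 and 1.82 CPM in uninvolved and 3.34, 6.49 and 7.45 CPM in lesional skin of mice 2237, 2275 and 2296. It was at 3.58 and 2.53 CPM in uninvolved and 8.18 and 30.8 CPM in lesional skin of mice 2392 and 2465. Every lesion was above its own uninvolved skin, and the lesion of mouse 2237 lay just under the uninvolved skin of mouse 2392. The difference was 1.91 ± 0.40 (log2, SE, 5 mice; edgeR adjusted p 0.0855). None of the 3 fibrillin-associated members (Adamts6, Adamts10 and Adamts17) had an unadjusted p under 0.05 in edgeR, with log2 differences of 0.70 ± 0.34, 0.29 ± 0.24 and 0.62 ± 0.42. Adamts13, the von Willebrand factor protease, had a log2 difference of 0.12 ± 0.24.

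The 4 TIMPs differed in direction. Timp1, the inducible inhibitor, was at 8.09, 3.66 and 5.62 CPM in uninvolved and 16.7, 20.1 and 45.0 CPM in lesional skin of mice 2237, 2275 and 2296. It was at 5.45 and 4.34 CPM in uninvolved and 139 and 102 CPM in lesional skin of mice 2392 and 2465. Uninvolved levels lay within 3.66 to 8.09 CPM, and the lesions of mice 2392 and 2465 were above the 3 other lesions. The difference was 3.17 ± 0.59 (log2, SE, 5 mice; edgeR adjusted p 0.0734).

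Timp2, which also helps MMP14 to activate pro-MMP2, was at 154, 199.9 and 187 CPM in uninvolved and 242, 371 and 249.9 CPM in lesional skin of mice 2237, 2275 and 2296. It was at 262 and 395 CPM in uninvolved and 265 and 621 CPM in lesional skin of mice 2392 and 2465. The skin types overlapped, with a log2 difference of 0.53 ± 0.18 (SE, 5 mice; edgeR adjusted p 0.165). Timp3, the matrix-bound inhibitor, was at 147, 196 and 149 CPM in uninvolved and 157, 217 and 86.9 CPM in lesional skin of mice 2237, 2275 and 2296, and at 191 and 238 CPM against 88.3 and 149 CPM in mice 2392 and 2465. It was lower in the lesion of 3 mice and slightly higher in 2, with a log2 difference of -0.47 ± 0.23 (SE, 5 mice; edgeR adjusted p 0.300). Its exons overlap those of Syn3 on 1733 bases, and no source used here gives the strand setting of the counting. Syn3 itself averaged 1.67 CPM. Similar overlaps on the other strand join Mmp19 with Tmem198b (789 bases, partner mean 6.85 CPM) and Adamts7 with Tbc1d2b (122 bases, 72.2 CPM), so reads in those stretches cannot be assigned with certainty.

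Timp4, an inhibitor found in heart and fat, was at 32.6, 33.5 and 36.3 CPM in uninvolved and 21.9, 18.2 and 33.1 CPM in lesional skin of mice 2237, 2275 and 2296. It was at 43.4 and 65.0 CPM in uninvolved and 56.7 and 8.38 CPM in lesional skin of mice 2392 and 2465. The lesion of mouse 2465, highest for many proteases, was the lowest library for Timp4. The log2 difference was -0.77 ± 0.46 (SE, 5 mice; edgeR adjusted p 0.376). The log2 difference in the summed level of 6 adipocyte markers was -0.87, -1.39, -0.46, 0.67 and -3.12 in mice 2237, 2275, 2296, 2392 and 2465, beside -0.57, -0.88, -0.13, 0.38 and -2.94 for Timp4, in the same order of mice. The part of fat content in the Timp4 difference was not tested.

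**Figure D3:**
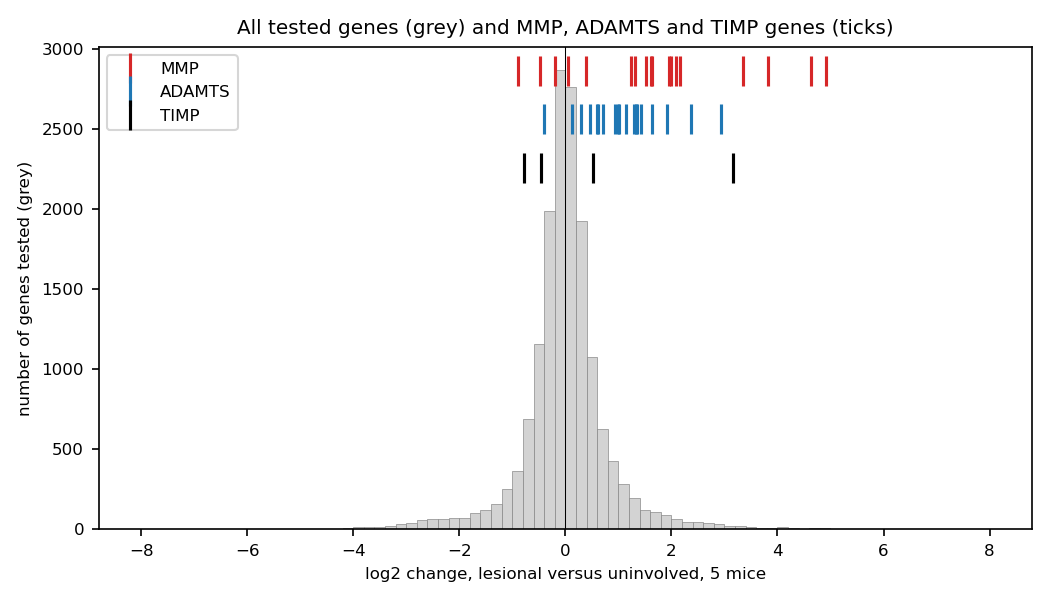
Distribution of the lesional minus uninvolved difference (log2, 5 mice) over the genes tested, on the x axis, with the MMP, ADAMTS and TIMP genes set apart from all genes. The members have a median of 1.29 and all genes a median of -0.01, and 32 of the 41 members lie above the upper quartile of all genes, 0.30.

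Levels were compared between genes on the deposited FPKM scale (fragments scaled by transcript length and library depth), which takes out transcript length. In uninvolved skin Timp2 led the family in 4 of 5 mice and Mmp2 in mouse 2296. In lesional skin Mmp2 led in 4 of 5 mice, and in mouse 2392 the order was Timp1 at 186, Mmp3 at 124 and Mmp2 at 83.5 FPKM. Within each library the ratio of summed MMP to summed TIMP FPKM was 1.04, 0.841, 1.42, 1.14 and 0.813 in uninvolved skin of mice 2237, 2275, 2296, 2392 and 2465, and 1.70, 1.75, 2.07, 1.17 and 2.91 in their lesions. It was higher in the lesion of 5 of 5 mice, but by little in mouse 2392, and these are ratios of RNA, not of active protein.

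**Figure D4:**
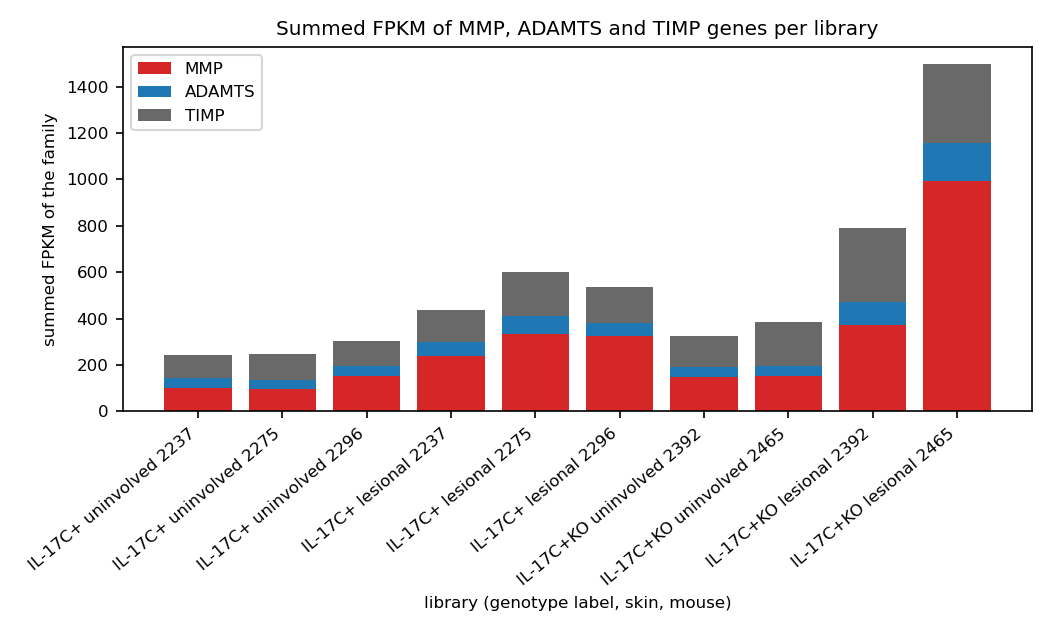
Summed FPKM of the MMP, ADAMTS and TIMP genes in each library, stacked by family, for uninvolved and lesional skin of the 5 mice. The total was 242 to 386 FPKM in uninvolved and 439 to 1496 FPKM in lesional libraries, with the highest total in the lesion of mouse 2465.

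Within the 3 mice labelled IL-17C+, the lesional difference was positive for 37 of 41 members, but edgeR called 0 of 41 members and 0 of 16083 genes (0%). At an unadjusted p under 0.05, 18 members were higher and 0 lower, beside 3.54% of all genes higher and 2.87% lower. DESeq2 called 6 members (Timp1, Mmp8, Mmp9, Mmp12, Mmp13 and Adamts2), beside 1.54% of all genes, and limma-voom called 0 members. The smallest unadjusted p belonged to Timp1, at a log2 difference of 2.17 ± 0.41, and Mmp9, at 2.06 ± 0.41, each with an edgeR adjusted p of 0.620. Mmp8, at 3.26 ± 0.79, also had an edgeR adjusted p of 0.620. Each SE here rests on the spread over all 5 mice, which both labels share. Adamts2 had a difference of 1.32 ± 0.36 (edgeR adjusted p 0.631), Mmp13 one of 3.53 ± 1.03 and Mmp12 one of 2.07 ± 0.61 (both at an edgeR adjusted p of 0.670).

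Within the 2 mice labelled IL-17C+KO, the smallest unadjusted p values belonged to Timp1, Mmp19 and Mmp3, and all 3 collagenases tested and 2 of the 3 stromelysins were higher at an unadjusted p under 0.05. The edgeR test called 0 of 41 members and 2 of 16083 genes (0.0124%). At an unadjusted p under 0.05, 21 members were higher, beside 6.16% of all genes, and 1, Timp3, was lower, beside 7.31%. DESeq2 called 15 members, beside 7.09% of all genes. Timp1 differed by 4.62 ± 0.54 (log2 over 2 mice, SE from the spread over all 5 mice, edgeR adjusted p 0.165). Mmp19 differed by 2.16 ± 0.30 and Mmp3 by 3.56 ± 0.50 (both at an edgeR adjusted p of 0.170). Mmp10 differed by 4.99 ± 0.92 (edgeR adjusted p 0.196) and Mmp8 by 4.45 ± 0.90 (edgeR adjusted p 0.207). Mmp1b had 55 lesional counts against 0 in the uninvolved libraries of these mice, at least 19.5-fold higher against a floor of 3 counts over the group. Without mouse 2237, whose libraries share the estimate of spread, Timp1 alone among the members was called in these 2 mice, at an edgeR adjusted p of 0.0499, among 11 genes (0.069%).

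Whether the lesional difference itself differed between the labels was tested as an interaction. No member and no gene was called in edgeR (0 of 16083, 0%), and the smallest adjusted p of a member was 1. At an unadjusted p under 0.05 there were 6 members, all with a larger difference in IL-17C+KO mice, beside 0.572% of all genes in that direction and 0.597% in the other, and DESeq2 called 0 members and 6 genes (0.0373%). The 6 members at that level in edgeR were Mmp3, with a difference of differences of 2.49 ± 0.61, Timp1 with 2.44 ± 0.62, Mmp19 with 1.42 ± 0.38, Mmp10 with 2.86 ± 1.10, Adamts9 with 1.42 ± 0.58 and Adamts1 with 1.40 ± 0.58 (log2, SE, 3 and 2 mice). For 9 of 41 members the difference in both IL-17C+KO mice exceeded that in all 3 IL-17C+ mice, where 5.59% of all genes did so. The members' median difference of differences was 0.33 with all mice, 0.82 without mouse 2392 and -0.20 without mouse 2465, so its direction rests on mouse 2465. For Mmp3 the within-mouse log2 differences were 3.45 and 3.65 under the IL-17C+KO label and 0.21, 0.88 and 2.13 under the IL-17C+ label.

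The labels were then compared within each skin type, between different mice. In lesional skin edgeR called 0 of 41 members and 0 of 15691 genes (0%), and DESeq2 called 6 members (Timp1, Mmp3, Mmp19, Adamts1, Adamts4 and Adamts5), beside 1.38% of all genes. At an unadjusted p under 0.05, 10 members were higher in IL-17C+KO lesions, beside 4.77% of all genes, and 0 were lower, beside 2.53%. Adamts4 was higher by 2.60 ± 0.29 and Mmp19 by 1.56 ± 0.18 (both at an edgeR adjusted p of 0.459). Adamts1, a protease of versican, was higher by 2.23 ± 0.42 and Timp1 by 2.18 ± 0.46 (both at an edgeR adjusted p of 0.555), Adamts5 by 1.53 ± 0.34 (edgeR adjusted p 0.565) and Mmp3 by 2.34 ± 0.57 (edgeR adjusted p 0.577; all log2, SE, 2 against 3 mice). Both IL-17C+KO lesions lay above all 3 IL-17C+ lesions for 12 members, where 11.8% of all genes did, and below them for 1, Adamts13, where 13.2% did. Cell type markers differed in the same contrast. In IL-17C+KO lesions 4 of 5 endothelial and 3 of 8 fibroblast markers were higher at an unadjusted p under 0.05. So were 1 of 7 macrophage and 1 of 10 neutrophil markers. At that level 1 of 8 hair follicle and 1 of 8 skeletal muscle markers were lower. Summed endothelial markers were at 289 to 327 CPM in IL-17C+KO and 124 to 196 CPM in IL-17C+ lesions, and summed fibroblast markers at 8458 to 29426 and 5683 to 13025 CPM. The part of cell content in the differences between the labels was not tested.

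In uninvolved skin 38 members were tested, and edgeR called 0 of them and 0 of 15568 genes (0%), as did DESeq2 for the members, with 11 genes (0.0707%) called. At an unadjusted p under 0.05, 4 members were higher in IL-17C+KO skin and 0 lower, beside 1.91% and 1.82% of all genes. Both IL-17C+KO libraries lay above all 3 IL-17C+ libraries for 10 members and below them for 0, beside 10.5% and 10.6% of all genes. Mmp9, Timp2, Adamts5 and Mmp8 were those 4, higher by 1.42 ± 0.42, 0.87 ± 0.33, 1.07 ± 0.41 and 1.25 ± 0.48 (log2, SE, 2 against 3 mice; edgeR adjusted p 0.849 for each). Next were Timp4 at 0.68 ± 0.29 and Adamts3 at -1.74 ± 0.87, with the same adjusted p. In the same contrast 2 of 5 endothelial and 3 of 8 fibroblast markers were higher at an unadjusted p under 0.05. So were 2 of 7 macrophage and 1 of 8 skeletal muscle markers. At that level 6 of 8 hair follicle and 1 of 9 neutrophil markers were lower. The part of cell content in the differences in uninvolved skin was not tested. These contrasts share libraries with the comparisons above, and age, which could be 10 or 14 weeks, cannot be told apart from the label.

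Of all 13445 genes compared, those whose log2 CPM followed Timp1 most closely over the 10 libraries were Cxcl5, a neutrophil-attracting chemokine (Pearson r 0.974), Sirpb1b (0.964), the kinase Nek6 (0.962), Saa3, an acute-phase protein (0.960), and Mefv, the pyrin gene (0.959). The members closest to Timp1 were Mmp3 (0.957), Mmp19 (0.938), Mmp10 (0.933), Mmp8 (0.915) and Adamts4 (0.901). The libraries come in pairs from 5 mice and share the split by skin type, so these values are a description.

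Of the members, 10 lie side by side on chromosome 9 (GENCODE M21 annotation of GRCm38, 7272514 to 7699585), with 0 other protein-coding genes between them: Mmp13, Mmp12, Mmp1b, Mmp3, Mmp1a, Mmp10, Mmp8, Mmp27, Mmp20 and Mmp7. Of the 7 tested, 6 had an unadjusted p under 0.05 and the median log2 difference was 3.34, against 19 of 34 and a median of 1.07 for members elsewhere, beside 21.5% of all genes. Not all neighbours were higher: Mmp27, between Mmp8 and Mmp20, had a log2 difference of -0.47 ± 0.39, and Mmp7 and Mmp20 were at or near 0 counts. Mmp1a, left out of the test by the count filter, had 16 counts in all lesional and 1 in all uninvolved libraries.

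**Figure D5:**
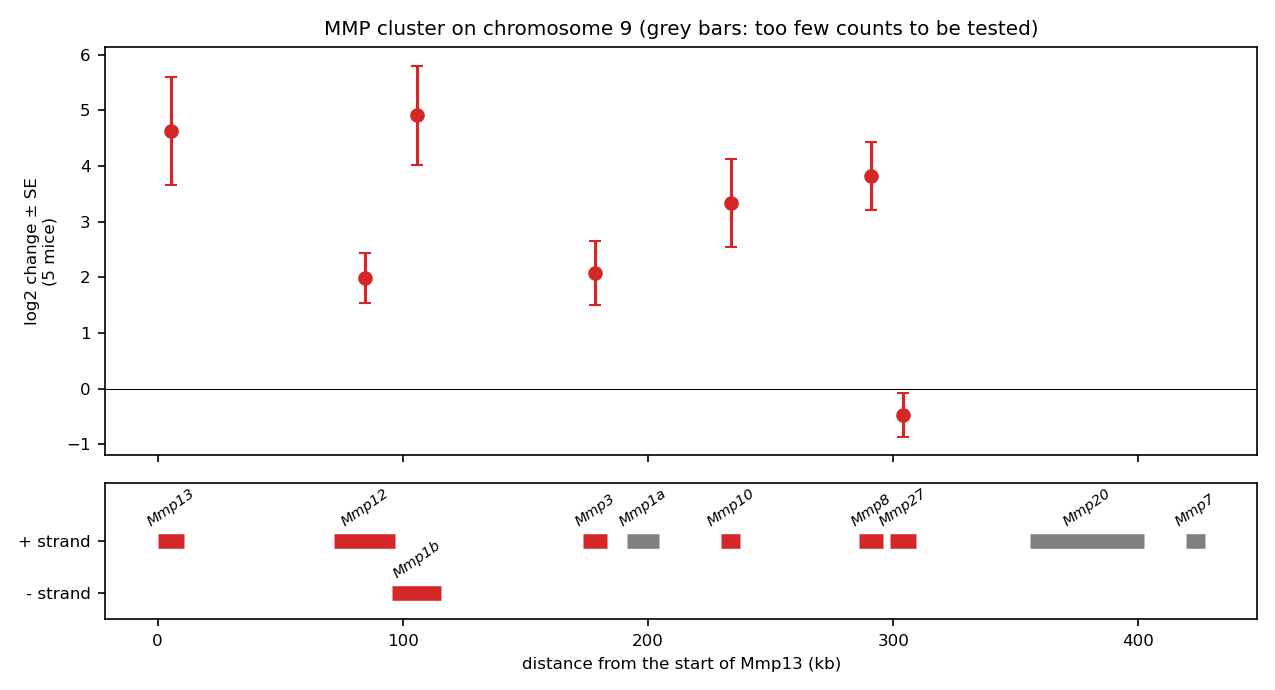
Lesional minus uninvolved difference (log2, 5 mice, bars of 1 SE) of the MMP genes of the chromosome 9 cluster against their distance in kb from the start of Mmp13. Mmp13, Mmp12, Mmp1b, Mmp3, Mmp10 and Mmp8 lie above 0, Mmp27 lies below it, and the genes left out by the count filter carry no value.

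The 120 bases upstream of the annotated starts are shown for 5 genes of the cluster, because the AP-1 motif TGANTCA occurred in 7 of the 10 cluster promoters and in 0 of the 22 other member promoters found in the RefSeq table (GRCm38.p6). The cluster promoters without it were those of Mmp27 and of Mmp8 and Mmp12, both higher in the lesion of 5 of 5 mice. Mmp1a and Mmp20, with few counts, held it and are not shown. No entry was found for 14 members, all outside the cluster, so their promoters were not searched. They were Mmp2, Mmp9, Mmp16, Mmp17, Mmp19, Adamts4, Adamts5, Adamts6, Adamts7, Adamts8, Adamts10, Adamts15, Adamts16 and Adamts19. Capitals mark matches to TGANTCA and to TATAAA, each searched on both strands. A match cut by the window is capitalised only within it. Mmp3, Mmp10 and Mmp13 were higher in lesions of 5 of 5 mice, Mmp1b in 4 of 5, and Mmp7 had 0 counts although it holds the same motifs. All lie on chromosome 9, at chr9:7272394-7272513 (Mmp13, + strand), chr9:7445702-7445821 (Mmp3, + strand), chr9:7502222-7502341 (Mmp10, + strand), chr9:7388027-7388146 (Mmp1b, - strand) and chr9:7691970-7692089 (Mmp7, + strand).
Mmp13: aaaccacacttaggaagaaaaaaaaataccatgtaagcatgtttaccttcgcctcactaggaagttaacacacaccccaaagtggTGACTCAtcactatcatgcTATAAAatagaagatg
Mmp3: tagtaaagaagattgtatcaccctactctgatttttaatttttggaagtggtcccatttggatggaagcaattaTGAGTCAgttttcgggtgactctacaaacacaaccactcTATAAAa
Mmp10: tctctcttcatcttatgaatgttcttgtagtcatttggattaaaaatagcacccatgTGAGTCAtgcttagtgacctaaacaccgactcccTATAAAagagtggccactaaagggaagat
Mmp1b: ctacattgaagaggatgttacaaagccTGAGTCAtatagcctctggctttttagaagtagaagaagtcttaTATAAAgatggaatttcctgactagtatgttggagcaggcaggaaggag
Mmp7: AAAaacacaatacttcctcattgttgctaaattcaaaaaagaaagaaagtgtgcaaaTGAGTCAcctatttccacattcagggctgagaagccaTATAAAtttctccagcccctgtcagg

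The windows scanned ran from 250 bases before to 50 after the start, and 32 of the 46 members had an entry. TGANTCA was in 7.93% of 27025 promoters of the table and in 21.9% of the member promoters. TATAAA, on either strand, was in 14.2% of all and in 10 of 32, in Mmp8 on the opposite strand only. The STAT motif TTCNNNGAA was in 8.47% of all promoters and 1 member promoter. These matches are a description of letters in the window, not of factor binding.

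Other genes that control these enzymes were read from lists of their pathways. Of the 8 tested genes of the plasminogen system, whose protease plasmin activates several pro-MMPs, edgeR called 0, and 5 were higher and 1 lower at an unadjusted p under 0.05, beside 10.1% and 11.5% of all genes. Plaur, the urokinase receptor, differed by 2.63 ± 0.46 (log2, SE, 5 mice; edgeR adjusted p 0.0683). Plau, urokinase itself, differed by 0.72 ± 0.19 (edgeR adjusted p 0.118). Of 8 tested genes for pro-MMP activation and clearance, 2 were higher at an unadjusted p under 0.05, beside 10.1% of all genes, and edgeR called 0: the proprotein convertase Pcsk5 at 1.74 ± 0.27 and the clearance receptor Lrp1 at 1.08 ± 0.24, while Furin was at 0.54 ± 0.28.

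Of the 7 ADAMTS-like genes, which encode relatives without a protease domain, 0 were called, and 0 were higher and 2 lower at an unadjusted p under 0.05, beside 10.1% and 11.5% of all genes: Adamtsl5 at -0.91 ± 0.27 and Adamtsl4 at -1.10 ± 0.44. Of the 7 ADAM sheddases, membrane proteases that release surface proteins, 0 were called and 5 were higher at an unadjusted p under 0.05, beside 10.1% of all genes, with Adam12 at 2.81 ± 0.62 and Adam8, a leukocyte member, at 1.33 ± 0.28. Of the 3 tested hyalectans, substrates of the ADAMTS aggrecanases, 1 was higher at an unadjusted p under 0.05, beside 10.1% of all genes. It was Vcan (versican), at 1.97 ± 0.41, with an edgeR adjusted p of 0.0853. The median log2 difference of these lists was 0.71, 0.27, -0.56, 0.41 and 1.77 in the order given, beside -0.01 over all genes. The last is the value of a single hyalectan, Acan (aggrecan), at 1.77 ± 1.23, which had 1 to 138 counts per library.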

How the data were processed

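RNA of 10 full-thickness dorsal skin biopsies (5 mice, 1 lesional and 1 uninvolved each) was sequenced on an Illumina Genome Analyzer IIx, per the labels. Per the submitters' processing notes, cutadapt 1.6, TopHat2 2.0.12, HTSeq and Cufflinks 2.2.1 were used with build mm10; no source used here gives the annotation or strand setting. Each deposited table gives the authors' whole-number counts per gene and their FPKM values. The deposited counts were the basis of all tests and the deposited FPKM of levels compared between genes.

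Counts were tested with edgeR 4.0.16 (TMM, filterByExpr over 4 groups, robust quasi-likelihood F test) in R 4.3.3, with Benjamini-Hochberg adjustment over all genes tested and a call at 0.05. Within-mouse comparisons had the mouse as a block, since the design text takes both biopsies from each mouse. Those within 1 label were fitted on all 10 libraries and share 1 estimate of the spread. Correlations of paired deviations were -0.119, 0.035 and -0.0703 for mice 2237, 2275 and 2296 and -0.0788 for mice 2392 and 2465, the last shared by construction. Comparisons between labels used the 5 libraries of 1 skin type. SE is the log2 difference divided by the root of F. CPM are TMM-scaled, except those said to be of total counts; within-mouse values use a prior count of 2. Intervals on pooled counts are exact, at 95%, and cover counting error only. The scripts were tested on simulated data.

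Alternatives were DESeq2 1.42.0, limma-voom and limma-trend (limma 3.58.1) on log2(FPKM + 1) and log2(FPKM + 0.1) for genes of mean FPKM of at least 1, RLE size factors, no count filter, no block, other sample sets and leaving out each mouse. Genes named were all TIMPs, the 12 MMP or ADAMTS members with the smallest unadjusted p over 5 mice at a mean of at least 1 CPM, and the 6 smallest in each other comparison. Members and lists were chosen with earlier results of these data known. Promoter sequences are from RefSeq. Replicates are separate mice, and p-values measure the spread between them. Some items are not reported here.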

Additional observations from a re-analysis of the deposited data

How the results depend on the processing

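The mouse block mattered most for the 5-mouse comparison: with no replicate block edgeR called 891 genes (5.54%), 14 of them members, instead of 8 and 0, while for the 2 IL-17C+KO mice it called 0 genes instead of 2. Over 5 mice DESeq2 called 2036 genes and 21 members, limma-voom 4 genes, no count filter 15 genes and the average of both labels' effects 21 genes and 1 member. Leaving out 1 mouse gave 0 to 1249 genes and 0 to 7 members called, and 19 to 29 members at an unadjusted p under 0.05, where 12.5 to 29.7% of all genes were. In the IL-17C+ mice DESeq2 called 247 genes and 6 members, and limma-trend 1 gene on log2(FPKM + 1) and 3 on log2(FPKM + 0.1), and members at an unadjusted p under 0.05 ran from 8 (without mouse 2275) to 18 on leaving out 1 mouse (2.57 to 10.2% of all genes). In the IL-17C+KO mice DESeq2 called 1140 genes and 15 members, no filter and both FPKM settings 5 genes each, their libraries alone 0, and leaving out 1 mouse 0 to 11 genes, 0 to 1 members, and 12 (without mouse 2465) to 22 members at an unadjusted p under 0.05 (3.71 to 16.8% of all genes). For the interaction DESeq2 called 6 genes and limma-trend on log2(FPKM + 1) 1 gene, and leaving out 1 mouse gave 4 to 8 members at an unadjusted p under 0.05 (0.904 to 4.17% of all genes). Between labels in lesions DESeq2 called 217 genes and 6 members, no filter 1 gene and the FPKM settings 4 and 6 genes, and leaving out 1 mouse gave 7 to 17 members (17 without mouse 2392) at an unadjusted p under 0.05 (3.35 to 12.8% of all genes). Between labels in uninvolved skin DESeq2 called 11 genes and the FPKM settings 9 and 12 genes with 2 members each at an unadjusted p under 0.05, and leaving out 1 mouse gave 0 to 241 genes (241 without mouse 2275) and 0 (without mouse 2465) to 10 members (without mouse 2275) at that level, where 0.540 to 15.8% of all genes were. Of the named genes' values, 520 kept their direction and side of the threshold, 50 passed it under an alternative (31 of them DESeq2) and 0 reversed. The FPKM settings shifted the median of all genes to 0.10 and 0.12 (log2). With 3 and 2 mice per label, genes with few counts such as Mmp1a and Mmp20 have no usable estimate.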

Other observations

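Adamts18, an ADAMTS gene chosen after its values were seen, varied more between mice than between skin types. It was at 4.50, 0.358 and 1.43 CPM in uninvolved and 5.27, 4.32 and 0.863 CPM in lesional skin of mice 2237, 2275 and 2296, and at 1.12 and 0.537 CPM against 0.867 and 3.66 CPM in mice 2392 and 2465. The summed level of 8 markers of the growing hair follicle was 8580.1, 37.4 and 1556 CPM in uninvolved and 5278, 5724 and 867 CPM in lesional skin of the first 3 mice, and 57.6 and 40.5 CPM against 27.3 and 1589 CPM in the others. The lesions of mice 2275 and 2465 were above their uninvolved skin in both, and the part of hair cycle stage in the difference was not tested.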
